A study of Mus musculus with 12 samples.

Results

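The cellular defense against oxidants and metals was followed through 10 mouse genes: the metallothioneins Mt1, Mt2, and Mt3, heme oxygenase 1 (Hmox1), the quinone reductase Nqo1, both subunits of the enzyme that starts glutathione synthesis (Gclm and Gclc), thioredoxin reductase 1 (Txnrd1), sulfiredoxin 1 (Srxn1), and the cystine transporter Slc7a11. They were chosen by name, with earlier results of these data known, and were read from 11 of the 39429 array probes, 2 of them for Hmox1. All 10 genes were among the 19648 genes that passed the filter on dim probes. All 11 probes were well above background on each of the 12 arrays, and the nearest to background, 1 Hmox1 probe, was at least 2.87 times the local background.

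Levels came from 12 one-color Agilent mouse arrays, 1 for each model of Alzheimer's disease or age, and each array carried equal amounts of RNA from 3 animals. The cortex set was prefrontal cortex of C57BL/6 mice of 1.5, 4, 17, and 22 months. The transgenic set was hippocampus of lines labeled C57BL/6 (the methods name C57BL/6N as the background of NCSTN and 5×FAD), namely NCSTN (mutated human NCSTN, 10 months), MAPT (wild-type human MAPT, 12 months), and 5×FAD (human transgenes with familial mutations, 6 months), so that transgene and age cannot be told apart. The ICR set was hippocampus of wild-type ICR mice that were treated at 7 weeks of age. They received into the cerebral ventricles, 14 days before the tissue was taken, either aggregated Aβ, at 5 μM or 10 μM, or the cell-toxic glucose analog streptozotocin, at 2.5 mg/kg or 3 mg/kg. The last group received scopolamine, a blocker of muscarinic acetylcholine receptors, into the peritoneum (1 mg/kg), 30 min before the tissue was taken, so that agent, route, and age at sampling cannot be told apart. All animals had been fasted overnight and anesthetized with isoflurane. The promoters of the NCSTN and MAPT transgenes are not given in the sources used here, and no control arrays were analysed here, so each model was compared with the others of its own set.

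A level is the log2 of the normalized intensity, and a difference of 1 is 2-fold. A gene was called higher or lower when it differed by at least 2-fold between the arrays compared. With 1 array per model there is no replicate error and no test, and every difference below describes these arrays. The scanner software put the error of the 11 probes at 10.0% to 14.3% of the signal, and repeated spots of 1 probe had a log2 SD of 0.075 to 0.101 within an array. These errors cover the array and not the spread between animals. Pooling hid that spread, which can still enter every difference between arrays.

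Several arrays stood apart before any antioxidant gene was considered. Xist, expressed from the inactive X chromosome, was well above background on the 3 transgenic arrays (9.20 to 9.58) and on none of the other 9, and the Y-linked Ddx3y showed the reverse, whereas the methods state male animals for all models. Regional markers followed the labels. The mean level of 4 cortical genes was 9.59 to 9.74 in cortex and 7.49 to 8.61 in hippocampus, and that of 4 hippocampal genes was 8.23 to 8.77 in cortex and 10.80 to 11.10 in hippocampus. The choroid plexus, the secretory tissue of the ventricles, was carried unevenly. The level of its marker Ttr was 15.57 in the 17-month cortex against 5.11 to 6.85 at the other ages, and 11.27 and 12.06 on the streptozotocin arrays against 17.33 to 17.41 on the other ICR arrays. In whole tissue, fewer cells of a type and less RNA per cell cannot be told apart.

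Metallothioneins are small cysteine-rich proteins that bind zinc and copper. Mt1 and Mt2 are made in many cells, in brain above all in astrocytes, and are induced by metals, glucocorticoids, and inflammatory signals, with the factor MTF1 acting through metal response elements, whereas Mt3 is largely restricted to the brain. Hmox1, Nqo1, Gclm, Gclc, Txnrd1, Srxn1, and Slc7a11 are classical targets of NRF2 (Nfe2l2), which is released from KEAP1 under oxidative or electrophilic stress and binds antioxidant response elements together with small MAF proteins.

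The promoters of the metallothioneins are shown because Mt1 and Mt2 moved together while Mt3 did not. The 3 genes lie in 1 cluster on chromosome 8 in the order Mt3, Mt2, Mt1, with the noncoding gene Gm39227 between Mt3 and Mt2. Each RefSeq window (GRCm38.p6) runs 5′ to 3′ from 250 bases before to 50 bases after the start of the gene, on the plus strand at chr8:94178839-94179138 for Mt1, chr8:94172368-94172667 for Mt2, and chr8:94152357-94152656 for Mt3, and capitals mark the core of the metal response element (TGCACNC or TGCGCNC, on either strand).
Mt1: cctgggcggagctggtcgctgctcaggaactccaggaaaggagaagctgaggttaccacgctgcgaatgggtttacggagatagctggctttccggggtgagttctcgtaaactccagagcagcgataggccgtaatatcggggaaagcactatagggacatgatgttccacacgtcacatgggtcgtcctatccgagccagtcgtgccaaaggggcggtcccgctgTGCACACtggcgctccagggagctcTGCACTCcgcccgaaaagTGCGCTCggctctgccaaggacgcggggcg
Mt2: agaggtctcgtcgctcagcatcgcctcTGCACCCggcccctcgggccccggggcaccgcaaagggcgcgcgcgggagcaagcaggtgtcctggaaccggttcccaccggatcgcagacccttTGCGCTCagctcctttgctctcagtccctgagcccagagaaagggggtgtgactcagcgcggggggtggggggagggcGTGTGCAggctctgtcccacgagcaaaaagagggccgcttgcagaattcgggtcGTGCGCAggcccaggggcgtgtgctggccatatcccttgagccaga
Mt3: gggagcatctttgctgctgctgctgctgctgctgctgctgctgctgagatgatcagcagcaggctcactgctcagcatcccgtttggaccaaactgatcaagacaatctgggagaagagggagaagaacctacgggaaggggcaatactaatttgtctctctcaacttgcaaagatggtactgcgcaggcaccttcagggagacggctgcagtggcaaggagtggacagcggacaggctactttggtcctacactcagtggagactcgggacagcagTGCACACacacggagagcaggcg
The core was found 3 times in the Mt1 window, 4 times in the Mt2 window, and 1 time in the Mt3 window. The Mt3 core, and part of those of Mt1 and Mt2, lay after the RefSeq start of the gene. Cores outside the windows were not counted. Of 32851 promoter windows of this length, 25.7% held at least 1 core, 1.97% at least 3, and 0.517% at least 4. Windows were matched for 8 of the 10 genes, and not for Hmox1 and Gclc. The Gclm window held 3 metal response cores and the Srxn1 window 1, and none was found in those of Slc7a11, Nqo1, and Txnrd1. The core of the antioxidant response element (TGACNNNGC, either strand, in 12.4% of all windows) was found 1 time each for Srxn1, Gclm, Mt2, and in 1 of 3 Txnrd1 windows, and not for Mt1, Mt3, Slc7a11, and Nqo1. A match of letters describes the window and is not a bound site, and its part in the levels was not tested.

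**Figure D1:**
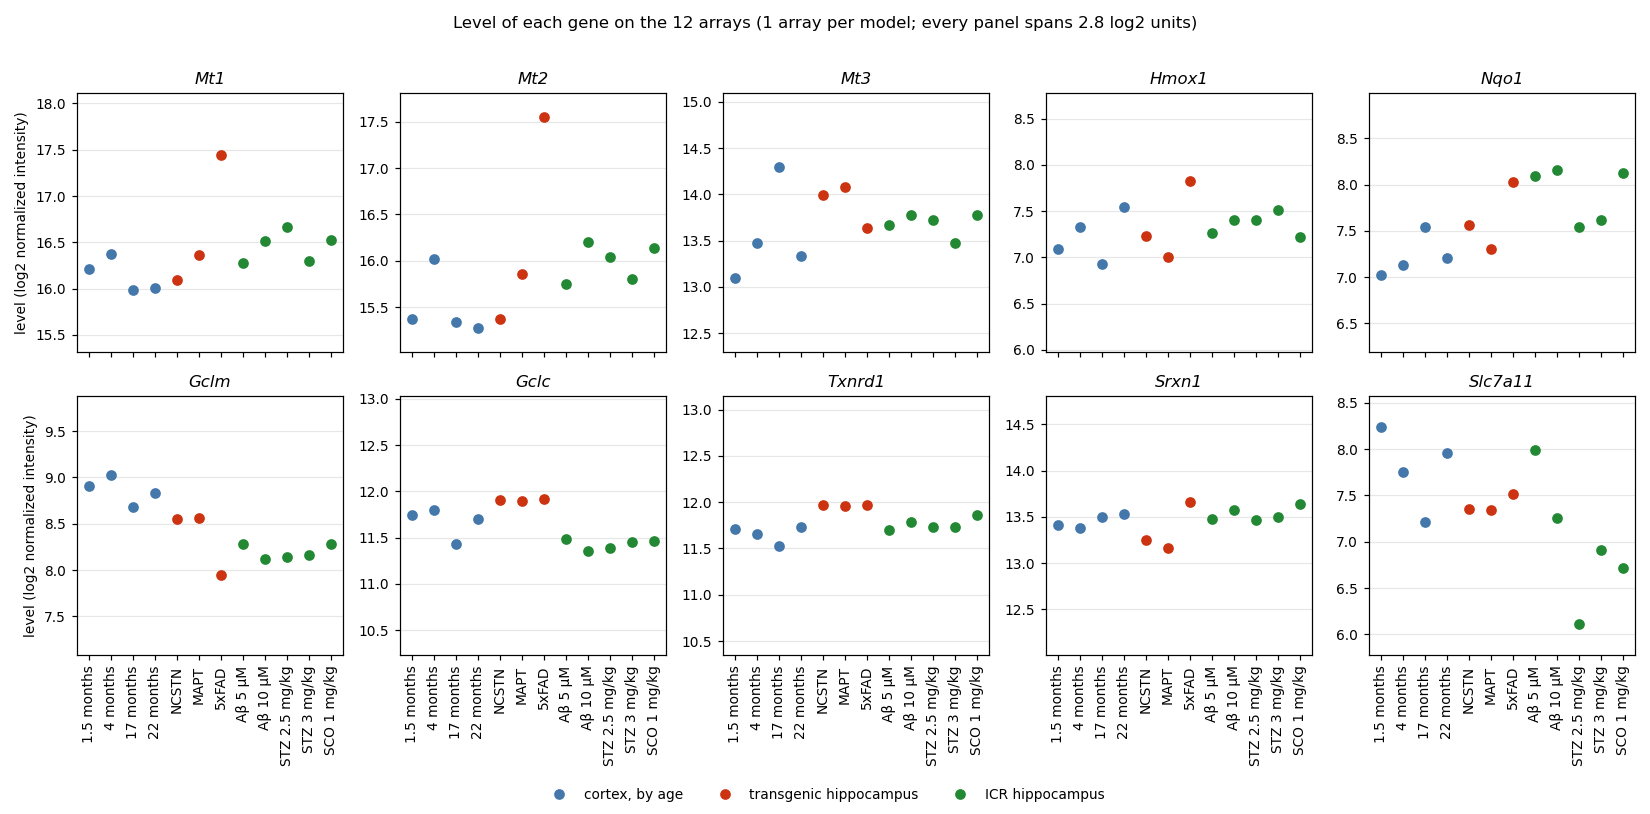
Level (log2 normalized intensity, vertical axis) of each of the 10 genes on the 12 arrays (horizontal axis), 1 point per array, colored by set, with the same span in every panel. Mt1 (17.44) and Mt2 (17.55) were highest in 5×FAD, Mt3 was highest in the 17-month cortex (14.29), and Slc7a11 was lowest after 2.5 mg/kg streptozotocin (6.11).

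Few of the 10 genes differed by 2-fold. In 5×FAD against the mean of NCSTN and MAPT, 2 of 10 rose (Mt1 and Mt2) and none fell, where 10.7% of all 19648 genes were called, 6.05% of all genes higher. In streptozotocin against Aβ, 1 of 10 fell (Slc7a11), where 7% of all genes were called, 5.07% of all genes lower. None of the 10 was called in the other comparisons, where 3.51% of all genes (17 and 22 against 1.5 and 4 months), 5.15% (4 against 1.5 months), 5.31% (22 against 17 months), 3.99% (NCSTN against MAPT), 5.73% (scopolamine against Aβ), 6.09% (10 against 5 μM Aβ), and 6.87% (3 against 2.5 mg/kg streptozotocin) were called. Among the 14016 genes well above background on all arrays, as these 10 are, the shares were 8.22% for 5×FAD, 2.84% for streptozotocin, and 0.449% to 1.79% for the others. The median difference of the 10 genes was 0.30 in 5×FAD, against -0.05 over all genes, and lay between -0.13 and 0.11 in the other 8 comparisons.

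**Figure D2:**
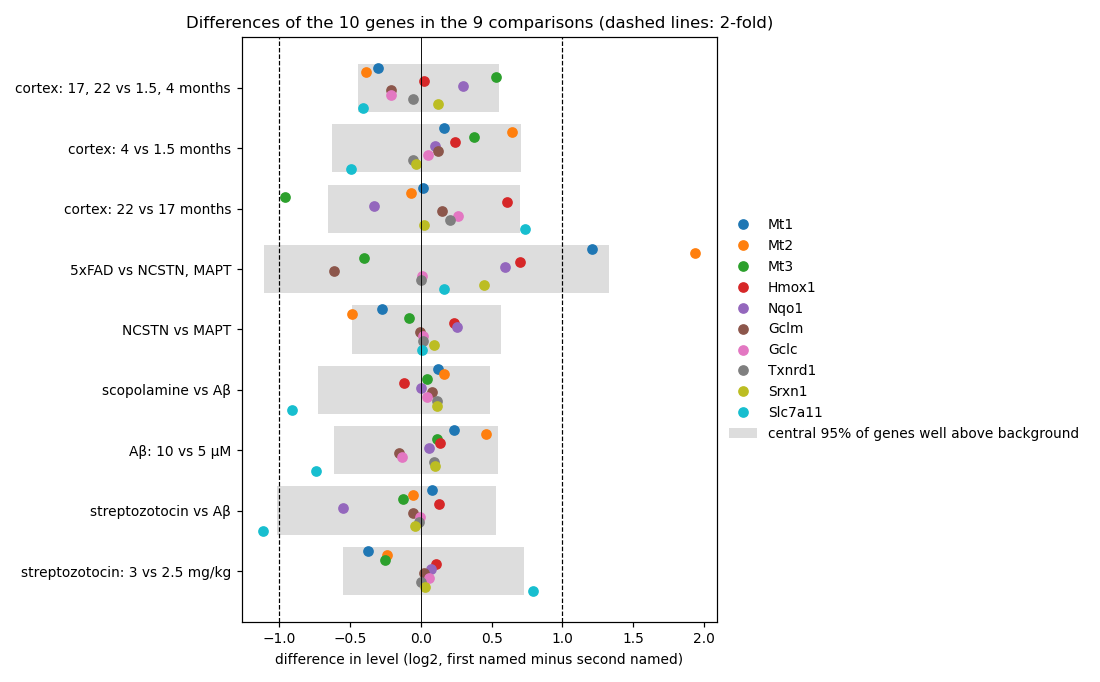
Difference in level (log2, horizontal axis) of the 10 genes, 1 point per gene, in each of the 9 comparisons (vertical axis). Gray bars span the central 95% of the 14016 genes well above background and dashed lines mark 2-fold. Mt2 (1.94) lies beyond the bar in 5×FAD, as Slc7a11 does in streptozotocin (-1.11) and scopolamine (-0.91) against Aβ, at 10 against 5 μM Aβ (-0.74), at 3 against 2.5 mg/kg streptozotocin (0.79), and at 22 against 17 months (0.74). Mt3 at 22 against 17 months (-0.96) and, barely, Mt2 in NCSTN against MAPT (-0.49) also lie outside.

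Mt2 had the widest range of the 10 genes within a set. Its level was 15.37 in NCSTN, 15.85 in MAPT, and 17.55 in 5×FAD. The 5×FAD array was thus 1.94 above the mean of the other two (3.83-fold), a difference at the 98.7th percentile of all genes. The rise was 1.70 against MAPT alone and 2.18 against NCSTN alone. In the ICR set Mt2 was 15.74 and 16.20 after 5 and 10 μM Aβ, 16.04 and 15.80 after 2.5 and 3 mg/kg streptozotocin, and 16.14 after scopolamine, and these 5 arrays spanned 0.46. In cortex it was 15.37, 16.02, 15.34, and 15.28 from 1.5 to 22 months. The 4-month array was the high one in cortex, by 0.65 over 1.5 months, and the remaining ages lay between 15.28 and 15.37.

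Mt1 showed the same order in the transgenic set, at a smaller size. Its level was 16.09 in NCSTN, 16.37 in MAPT, and 17.44 in 5×FAD, a rise of 1.21 (2.32-fold) over the mean of the other two. In cortex Mt1 was 16.21, 16.37, 15.98, and 16.00 from the youngest to the oldest age. In the ICR set it ran from 16.28 after 5 μM Aβ to 16.67 after 2.5 mg/kg streptozotocin. Apart from 5×FAD, the levels of Mt1 in all 3 sets lay between 15.98 and 16.67. The files hold no probe sequences, so whether the probes of these related genes detect each other's RNA was not tested.

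Mt3, first described as a growth inhibitory factor of brain, followed another pattern. Its level was 13.99 in NCSTN, 14.08 in MAPT, and 13.64 in 5×FAD, a difference of -0.40 that did not reach 2-fold and ran opposite to Mt1 and Mt2. In cortex Mt3 was 13.10 at 1.5 months, 13.47 at 4, 14.29 at 17, and 13.34 at 22 months. The 17-month array alone was high, 0.96 above 22 months and 1.20 above 1.5 months, and it is the cortex array with Ttr at 15.57. The 7 choroid plexus markers averaged 8.73 on that array and 4.82 to 5.94 at the other ages. Without it, the difference between old and young cortex was 0.05 instead of 0.53. The part of choroid plexus RNA in the Mt3 level was not tested. In the ICR set Mt3 stayed between 13.48 and 13.78, on arrays whose choroid plexus markers averaged 6.71 to 12.29.

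Markers of glia moved with the metallothioneins in 5×FAD. In this comparison 6.05% of all genes were called higher, and 4.74% of those well above background. Of 8 microglial genes, 5 were called higher and the median difference was 1.34, with Trem2, a lipid receptor of microglia, at 3.24 and its partner Tyrobp at 2.75. The log2 of the summed level of these 8 genes was 16.39 in 5×FAD against 14.13 in both NCSTN and MAPT. Of 8 astrocyte genes, 2 were called higher, Gfap (1.79) and the water channel Aqp4 (1.19), the median was 0.33, and the log2 sum was 18.15 in 5×FAD against 17.82 and 17.83. Gfap was also 1.03 higher in NCSTN (11.84) than in MAPT (10.81), where Mt1 and Mt2 differed by -0.28 and -0.49. The 8 genes of the glucocorticoid response, another inducer of Mt1 and Mt2, had a median of 0.24, with 1 called higher (Sgk1, 1.19). The 7 choroid plexus markers had a median of 0.70 in 5×FAD, with 1 called higher. Their log2 sum, however, was lower in 5×FAD (16.72) than in NCSTN (16.96) and MAPT (17.06). The part of any of these in the metallothionein levels was not tested.

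The genes whose pattern was most like that of Mt2 were sought over the 12 arrays after each gene was centered within its set, among the 14016 genes well above background. Mt1 came first with a Pearson's r of 0.97, followed by Plek (0.94), Ctsb (0.94), Hsdl2 (0.94), and Smco4 (0.94). The arrays share the 5×FAD array, on which all of them were high. Without it r was 0.85 for Mt1, 0.68 for Plek, 0.68 for Ctsb, 0.70 for Hsdl2, and 0.77 for Smco4. Mt3 had an r of -0.27 with Mt2, and 0.06 without 5×FAD. These values describe 12 arrays that share normalization and sets.

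Hmox1, which opens the heme ring and releases iron and carbon monoxide, gave different answers on its 2 probes. On probe A_51_P263965 the level was 8.33 in NCSTN, 7.79 in MAPT, and 9.39 in 5×FAD, a difference of 1.34. On probe A_55_P2029687 it was 6.14, 6.21, and 6.25, a difference of 0.07. The average used here was 7.23, 7.002, and 7.82, a difference of 0.70 that was not called, and the first probe alone would have put Hmox1 past 2-fold in 5×FAD as well. The same split appeared in cortex. The first probe was 7.73 at 1.5 months, 8.25 at 4, 7.55 at 17, and 8.51 at 22 months, a range of 0.96, whereas the second stayed between 6.31 and 6.57. In the ICR set the first probe lay between 8.73 and 8.93 and the second between 5.67 and 6.16. Which transcripts the 2 probes cover is not given in the sources used here.

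**Figure D3:**
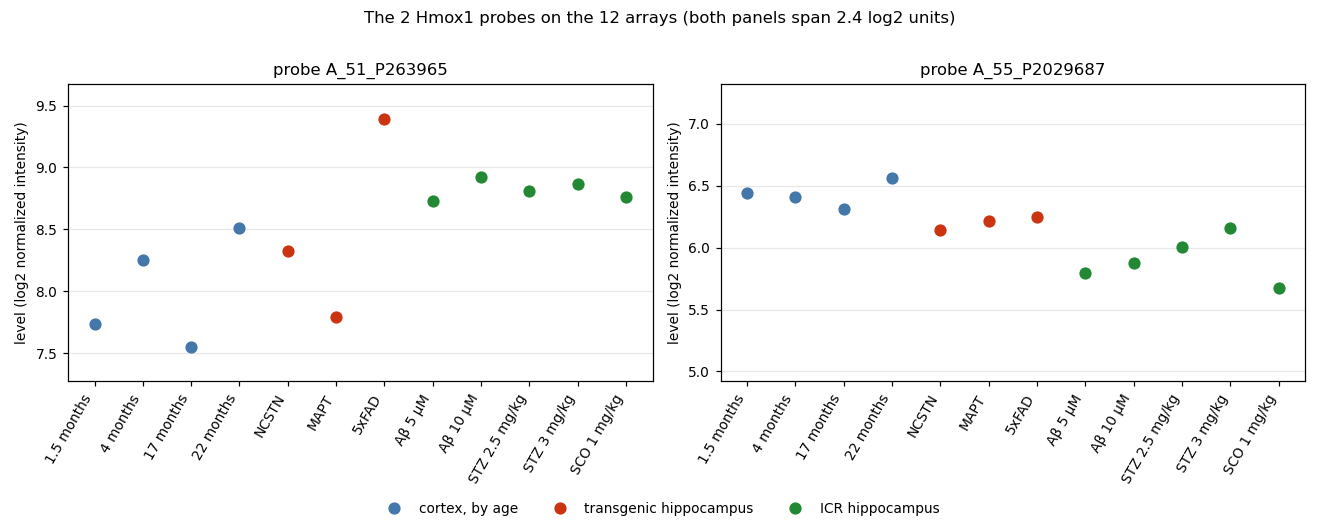
Level (log2 normalized intensity, vertical axis) of Hmox1 on the 12 arrays (horizontal axis), with 1 panel for each probe, equal spans, and colors for the sets. Probe A_51_P263965 reached 9.39 in 5×FAD against 8.33 and 7.79 in NCSTN and MAPT, whereas probe A_55_P2029687 lay between 6.14 and 6.25 on the same arrays.

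The genes most like the average of the 2 Hmox1 probes, by the same measure, were Ap3s2 (r of 0.97), Ier3ip1 (0.96), Hpse (0.95), Cars (0.95), and Hscb (0.95). Without 5×FAD their r ranged from 0.89 (Hscb) to 0.93 (Ap3s2). The r of Hmox1 with Mt2 was 0.63, and -0.05 without 5×FAD.

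Slc7a11, the light chain of the exchanger that brings in cystine for glutathione synthesis and releases glutamate, varied most in the ICR set. Its level was 7.99 after 5 μM Aβ, 7.25 after 10 μM Aβ, 6.11 after 2.5 mg/kg streptozotocin, 6.91 after 3 mg/kg, and 6.72 after scopolamine, a range of 1.87 (3.67-fold). Both streptozotocin arrays lay below both Aβ arrays, and the means differed by -1.11, a fall to 0.46 of the Aβ mean. The call depended on single arrays. It was lost without 2.5 mg/kg streptozotocin (-0.71) and without 5 μM Aβ (-0.74), and also with another background correction (-0.77). Scopolamine was lower than Aβ by 0.91, which was not called, but was 1.27 lower than 5 μM Aβ alone. The 2 doses within an agent differed by almost as much, with -0.74 for 10 against 5 μM Aβ and 0.79 for 3 against 2.5 mg/kg streptozotocin.

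Markers of meningeal fibroblasts, the cells of the membranes around the brain, followed the same order as Slc7a11 on the 5 ICR arrays. The mean level of 6 such genes was 11.73 and 11.38 after 5 and 10 μM Aβ, 8.37 and 9.94 after 2.5 and 3 mg/kg streptozotocin, and 9.62 after scopolamine. All 6 were called lower in streptozotocin than in Aβ, with a median of -2.36, and 5 of 6 were called lower in scopolamine, with a median of -2.19. The 6 were well above background on every array, and their log2 sum was 15.47 and 15.03 with Aβ, 12.20 and 14.08 with streptozotocin, and 13.99 with scopolamine. All 7 choroid plexus markers were also called lower in streptozotocin than in Aβ (median -5.49), but not in scopolamine (median 0.06). The part of these tissues in the Slc7a11 level was not tested.

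**Figure D4:**
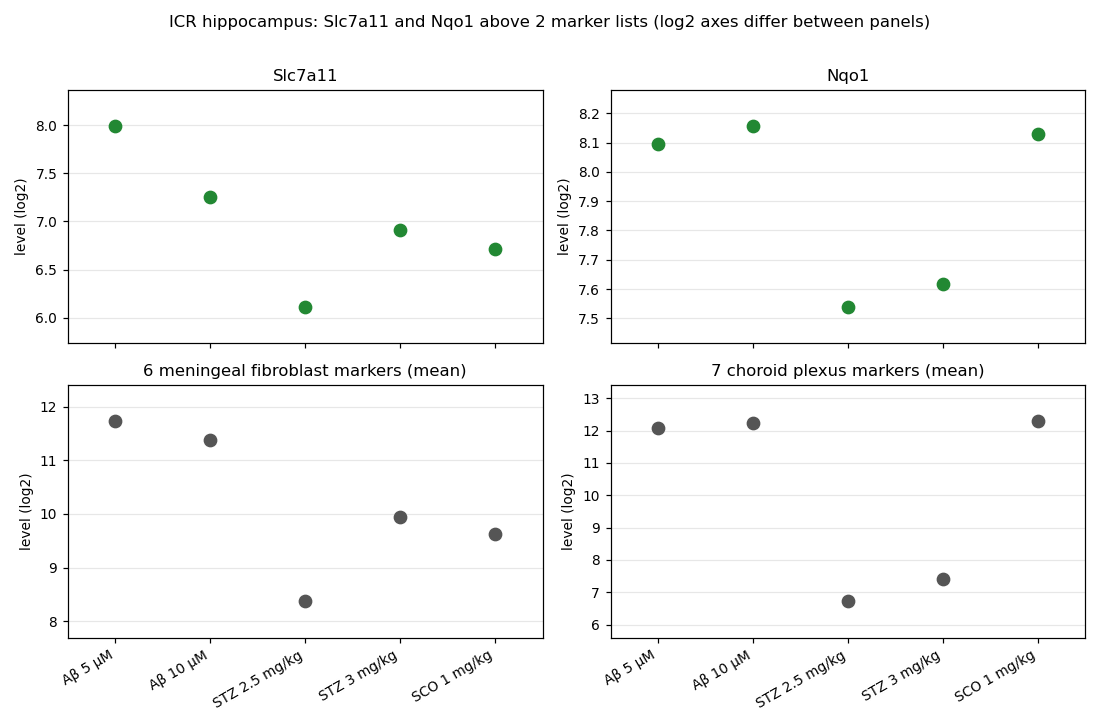
Level (log2, vertical axes, which differ between panels) on the 5 ICR hippocampus arrays (horizontal axis), 1 point per array, of Slc7a11 and Nqo1, and the mean level of 6 meningeal fibroblast and 7 choroid plexus markers. Slc7a11 and the fibroblast markers were highest after 5 μM Aβ (7.99 and 11.73) and lowest after 2.5 mg/kg streptozotocin (6.11 and 8.37), and Nqo1 and the choroid plexus markers were lower on both streptozotocin arrays than on the other 3.

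Outside the ICR set Slc7a11 varied less. In cortex it was 8.24 at 1.5 months, 7.75 at 4, 7.22 at 17, and 7.96 at 22 months, so that the 17-month array was the low one and the oldest was close to the young ones. The old minus young difference of -0.41 became -0.04 without the 17-month array. The meningeal fibroblast markers averaged 10.47, 9.62, 9.96, and 9.38 from the youngest to the oldest age. Both were highest at 1.5 months, but the markers were lowest at 22 months and Slc7a11 at 17 months. In the transgenic set the levels of Slc7a11 were 7.35, 7.35, and 7.51 in NCSTN, MAPT, and 5×FAD, and the markers averaged 9.91, 9.42, and 9.96.

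The 2 subunits of glutamate-cysteine ligase varied little on the ICR arrays, where Slc7a11 varied most. Gclc, the catalytic subunit, was 11.91, 11.89, and 11.91 in NCSTN, MAPT, and 5×FAD, and lay between 11.36 and 11.49 on the 5 ICR arrays. Gclm, the modifier subunit, was 8.55 in NCSTN, 8.56 in MAPT, and 7.94 in 5×FAD. Its difference of -0.61 in 5×FAD was the lowest of the 10 genes there and did not reach 2-fold, while that of Gclc was 0.01. On the ICR arrays Gclm lay between 8.12 and 8.28. In cortex both were lowest at 17 months, Gclc at 11.43 against 11.70 to 11.80 and Gclm at 8.68 against 8.83 to 9.02. Slc7a11, Mt1, Txnrd1, and the average of the Hmox1 probes were also lowest on that array.

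Txnrd1 and Srxn1, which keep protein thiols reduced, were steady in cortex and on the ICR arrays. Txnrd1 is a selenoenzyme that reduces thioredoxin with NADPH, and its level was 11.97, 11.96, and 11.97 in the transgenic set, 11.70 to 11.86 in the ICR set, and 11.53 to 11.73 in cortex. The largest of its 9 differences was 0.20, at 22 against 17 months. Srxn1, which repairs overoxidized peroxiredoxins, was 13.25 in NCSTN, 13.16 in MAPT, and 13.65 in 5×FAD, a difference of 0.45. Its range was 0.15 on the cortex arrays and 0.17 on the ICR arrays.

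Nqo1, which reduces quinones by transfer of a pair of electrons, was 7.56 in NCSTN, 7.31 in MAPT, and 8.03 in 5×FAD, a difference of 0.59 that was not called. On the ICR arrays it was 8.10 and 8.16 after 5 and 10 μM Aβ, 7.54 and 7.62 after 2.5 and 3 mg/kg streptozotocin, and 8.13 after scopolamine. The streptozotocin arrays lay together below the other 3, by 0.55 against Aβ, which is under 2-fold. The choroid plexus markers averaged 6.71 and 7.39 on these arrays and 12.06 to 12.29 on the other 3. In cortex Nqo1 was 7.02, 7.13, 7.54, and 7.21 from 1.5 to 22 months, and was highest on the 17-month array, the cortex array with Ttr at 15.57. The part of choroid plexus RNA in the Nqo1 level was not tested.

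The regulators of these genes were measured on the same arrays. Nfe2l2, which encodes NRF2, was 10.07 in NCSTN, 9.99 in MAPT, and 10.96 in 5×FAD, just under 2-fold, and was 9.84 to 9.90 at all 4 ages in cortex. Maff, a small MAF partner of NRF2, was 5.83, 5.36, and 7.46 in NCSTN, MAPT, and 5×FAD, and rose by 1.87. Maff was also called higher in old than in young cortex (1.32) and lower at 22 than at 17 months (-1.61), with levels of 5.19, 5.43, 7.44, and 5.82 from the youngest to the oldest age. Without the 17-month array the difference between old and young cortex was 0.51, and Maff was not called. In the ICR set Maff fell by 1.19 from Aβ to streptozotocin. The 3 lower cortex arrays and the 2 streptozotocin arrays are again those with the lowest choroid plexus markers of their sets, whose part in the Maff level was not tested. Keap1, the inhibitor of NRF2, differed by at most 0.49 in any comparison, and Mtf1 lay between 8.07 and 8.72 on all 12 arrays.

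Beyond the 10 genes, 81 related genes in 7 lists were all measured. In 5×FAD 3 of the 81 were called (3.70%), against 10.7% of all genes and 8.22% of those well above background. Maff and the siderophore-binding Lcn2 (1.06) rose, and the zinc importer Slc39a10 fell by 1.34. In streptozotocin against Aβ 9 of the 81 were called lower (11.1%, against 5.07% of all genes and 2.58% of those well above background). They were the glutathione transferase Gstm2 (-2.18), the ferroxidase ceruloplasmin (Cp, -2.15), the copper exporter Atp7b (-1.73), which was not well above background on both Aβ arrays and is named because its value was seen, the endoplasmic reticulum peroxidase Gpx8 (-1.74), Lcn2 (-1.48), the copper importer Slc31a1 (-1.33), Osgin1 (-1.32), Maff (-1.19), and the extracellular superoxide dismutase Sod3 (-1.12). All 7 choroid plexus and all 6 meningeal fibroblast markers were lower in that comparison too, and their part in it was not tested.

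The other 7 comparisons called 1 to 3 of the 81 genes (1.23% to 3.70%), where 3.51% to 6.87% of all genes were called. Of the genes well above background, as most of the 81 are, 0.449% to 1.79% were called there. In each of these comparisons the share of the 81 lay above that share and below that of all genes. Lcn2 and Hp, acute-phase genes, were among the called genes more than 1 time. Lcn2 was 6.83, 8.45, 8.91, and 6.74 from 1.5 to 22 months, called higher at 4 than at 1.5 months (1.62) and lower at 22 than at 17 months (-2.17), and it was called lower after scopolamine than after Aβ (-1.76) and after 10 than after 5 μM Aβ (-1.15). Hp, which binds free hemoglobin, was called higher at 4 than at 1.5 months (by just 2-fold), in NCSTN than in MAPT (1.18), and after 3 than after 2.5 mg/kg streptozotocin (1.23), and lower after 10 than after 5 μM Aβ (-1.44). Mt4, the metallothionein of stratified epithelium, was called lower at 22 than at 17 months (-1.72), with 6.10 on the 17-month array and 4.32 to 4.60 at the other ages. The 17-month array is the cortex array with the highest Ttr. Without it, the difference between old and young cortex was -0.08 for Mt4 and -0.90 for Lcn2. The part of choroid plexus RNA in these levels was not tested. After scopolamine, Gstm2 (-1.01) and Cp (-1.23) were called lower than after Aβ, and between the streptozotocin doses Gstm2 (1.25) was called higher and Gstt1 (-1.02) lower at 3 mg/kg. Meningeal fibroblast markers moved with these calls, with 5 of 6 lower after scopolamine than after Aβ and all 6 higher at 3 than at 2.5 mg/kg streptozotocin (median 1.47), and their part was not tested. Of the 12 thioredoxin and peroxiredoxin genes, none was called in any of the 9 comparisons, and their median difference lay between -0.09 and 0.14.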

How the data were processed

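RNA of 12 mouse models, pooled from 3 animals each, had been labeled and hybridized to Agilent 44K arrays. The authors deposited the intensity of each of 43020 spots as the scanner software gave it, and a matrix of processed intensity values, which served as an alternative. The matrix is linear and uncentered (Spearman's rho with the processed signal of at least 0.987), and its medians of 117 (cortex, NCSTN, MAPT), 134 (5×FAD), and 157 to 158 (ICR) show separate normalizations, so its 5×FAD values were set across 2 scales. The log2 processed signal of probes at least 1.4 times the local background on all 12 arrays (36520 of 39429) was quantile normalized over the 12 arrays, with the filter and method that the study's methods name. Of all probes, 69.8% had a gene symbol through RefSeq accessions, and the probes of a gene were averaged. Between 63.5% and 75.8% of probes were well above background per array, with the highest share in 5×FAD (NCSTN 69.7%, MAPT 72.3%). Levels were compared within cortex, transgenic hippocampus, and ICR hippocampus, gene by gene, with a threshold of 2-fold and no p-value. No slide or scan date is in the files, so batches could not be examined. A batch difference between 5×FAD and the other transgenic arrays cannot be told apart from transgene and age. The 10 genes and all lists were chosen with earlier results of these data known. All 10 genes are named, and related genes when called and well above background on every array of the brighter side. Alternatives were scaling to the 75th percentile, normalization within sets, limma's normexp (offset 50), the matrix, no filter or a 2-fold filter, the brightest probe, a 1.5-fold threshold, and leaving out 1 array. Analyses used Python 3.11.15, pandas 2.3.3, and limma 3.58.1 in R 4.3.3, and the steps were tested on simulated data. The number of arrays limits the precision.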

Additional observations from a re-analysis of the deposited data

How the results depend on the processing

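The rise of Mt1 and Mt2 in 5×FAD passed 2-fold under every alternative that was run, with differences of 1.04 to 1.36 for Mt1 and 1.75 to 1.96 for Mt2, and 1.07 to 1.35 and 1.70 to 2.18 when NCSTN or MAPT was left out. No call changed sign under any alternative. With the brightest probe Hmox1 was past 2-fold in 5×FAD as well (1.34). The fall of Slc7a11 in streptozotocin against Aβ was under 2-fold, which leaves 0 genes called, with normexp (-0.77) and in the deposited matrix (-0.69, where all genes had a median of 0.19, so that it was -0.87 relative to them). With 1 array left out this count was 0 to 1, the lower value without 2.5 mg/kg streptozotocin (-0.71) and without 5 μM Aβ (-0.74). Leaving out 1 array also gave counts of 0 to 1 for old against young cortex (Mt3 at 1.01 without 22 months) and for scopolamine against Aβ (Slc7a11 at -1.27 without 10 μM Aβ). Normexp called 1 gene at 22 against 17 months (Mt3, -1.07). At 1.5-fold 5 genes passed in 5×FAD, 3 at 22 against 17 months, and 1 each at 4 against 1.5 months, in scopolamine against Aβ, at 10 against 5 μM Aβ, and at 3 against 2.5 mg/kg streptozotocin. The cause of these changes was not tested. No paired analysis was possible because every model has 1 array. Differences under 2-fold cannot be set against a spread between animals. The probes nearest to background were 1 Hmox1 probe (2.87 times) and that of Slc7a11 (4.64 times, after 2.5 mg/kg streptozotocin, with a scanner error of up to 12.1%).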
